A study of Cavia porcellus with 35 samples.

Results

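Gene expression was compared in the prefrontal cortex of F2 female guinea pigs (Cavia porcellus) whose paternal grandmothers had received betamethasone, a synthetic glucocorticoid (sGC), or saline in late pregnancy. The group consisted of every F2 animal with RNA sequencing, 8 of the 35 samples of the series, with 4 animals of the control line (labelled Control) and 4 of the betamethasone line (labelled Beta). All were females killed on postnatal day 40, and 1 library was made from each. F1 sons of the treated dams were mated with females outside the experiment, so the F2 animals themselves were neither treated nor carried by a treated dam, and the controls descended in the same way from dams given saline. The medial prefrontal cortex was sampled by micropunch of the cingulate area 1 and infralimbic cortex, 1 animal per sex was taken from a litter, and animals were chosen for sufficient RNA of high quality. In such bulk punches, a change in the number of cells of a type and a change in the RNA of each cell cannot be told apart.

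Glucocorticoids act through 2 nuclear receptors, the glucocorticoid receptor NR3C1 and the mineralocorticoid receptor NR3C2, which bind DNA and switch target genes such as FKBP5. The prefrontal cortex carries both receptors, restrains the hormonal stress response and governs attention and activity. Its grey matter holds excitatory neurons ordered in upper layers, which project mainly within the cortex, and deep layers, which project to the thalamus and brainstem. Around them lie several classes of inhibitory interneuron, astrocytes, and oligodendrocytes, which wrap axons in myelin and are still maturing in a juvenile.

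The tissue was checked against its labels before the groups were compared, since the extraction notes with the samples name the paraventricular nucleus, a hypothalamic area, while the source is given as prefrontal cortex. Levels are given in CPM, the reads of a gene scaled to the size of its library after TMM normalization. The vesicular glutamate transporter of cortical excitatory neurons, SLC17A7, lay between 1245 and 1503 CPM in the 8 animals. The peptides that define the paraventricular nucleus were close to the detection limit, with vasopressin (AVP) between 0.461 and 1.35 CPM, oxytocin (OXT) between 1.54 and 3.85 CPM and CRH between 0.302 and 2.28 CPM. Its developmental factor SIM1 was measured at 8.75 to 14.9 CPM and the hypothalamic peptide gene POMC at 5.09 to 11.01 CPM. The developmental factor OTP was not among the listed genes, nor was the cortical factor TBR1. Of the striatal markers that a deep punch could include, ADORA2A was not listed and DRD2 lay between 0.214 and 4.48 CPM, while PPP1R1B and RGS9, which cortex also expresses, lay between 64.5 and 91.0 CPM and between 18.2 and 29.3 CPM. Library totals lay between 12819964 and 17052339 reads, and gave p = 0.429 in an exact two-sided permutation test between the lines, where 0.0286 is the smallest p that 4 against 4 animals allow. The 10 most abundant genes took 3.16% to 3.83% of a library, and no pair of libraries was alike enough to be 1 library deposited again.

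The animals did not separate cleanly by line. On the first principal component of log2 CPM, which held 41.4% of the variance, controls 2, 3 and 4 scored -13.6, -20.1 and -15.5, and betamethasone animals 1, 3 and 4 scored 14.3, 25.7 and 12.7. Control 1 stood at 0.367 and betamethasone 2 at -3.83, between the other animals of both lines and in reversed order. By mean correlation across genes, betamethasone 2 was nearer to the controls (0.992) than to the other betamethasone animals (0.989), and control 1 was slightly nearer to its own line (0.992 against 0.990). Because these 2 animals resemble the other group, results are given below with all 8 animals and again without both. Leaving them out selects for animals that differ, so the second set of values describes 3 against 3 animals and is not an independent test of the first.

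**Figure D1:**
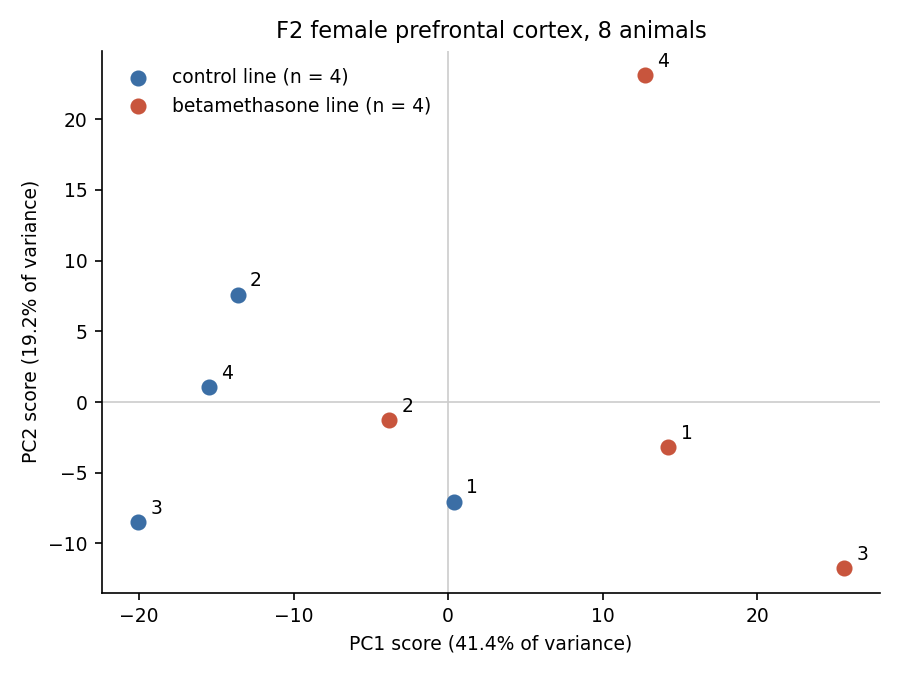
Scores of the 8 F2 females on the first (x axis) and second (y axis) principal component of log2 CPM over the genes tested, with each animal numbered as labelled. Control 1 (0.367) and betamethasone 2 (-3.83) lie between controls 2 to 4, on the left, and betamethasone animals 1, 3 and 4, on the right.

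Of the 11132 genes tested, 31 (0.278%) differed between the lines in the quasi-likelihood test of edgeR at a false discovery rate (FDR, the Benjamini-Hochberg adjusted p) under 0.05. In the betamethasone line 17 were higher (0.153%) and 14 lower (0.126%). The highest of the 31 was HAPLN2, at a log2 fold change of 1.70, and the lowest was VWA5B1, at -1.96. Their median absolute log2 fold change was 0.86, against 0.10 over all tested genes. In all 31 the 4 betamethasone animals lay beyond the 4 controls, which was so for 4.08% of all tested genes in the upward and 4.02% in the downward direction. Their adjusted p-values lay between 0.0334 and 0.0490. An unadjusted p under 0.05 was reached by 8.72% of all genes in the upward and 7.35% in the downward direction, and this weaker criterion is used below to describe gene lists.

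Of the 17 genes that rose, 2 were on the list of mature oligodendrocyte and myelin genes. ANLN, anillin, an actin and septin scaffold enriched in oligodendrocytes, measured 34.6, 29.1, 27.8 and 23.6 CPM in controls 1 to 4 and 78.4, 53.1, 101 and 76.7 CPM in betamethasone animals 1 to 4. HAPLN2, a link protein of the matrix at nodes of Ranvier, measured 8.83, 6.02, 4.54 and 5.66 CPM in the controls and 19.4, 11.4, 31.1 and 19.8 CPM in the betamethasone line. In both genes control 1 was the highest control and betamethasone 2 the lowest betamethasone animal, and a gap remained between them. The log2 fold change was 1.42 ± 0.17 (SE) for ANLN and 1.70 ± 0.28 for HAPLN2.

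Genes of secreted and matrix proteins that rose included CTGF, NOV, COL9A2 and COL18A1. CTGF, a matricellular protein of the CCN family that in cortex marks the deepest layer, measured 46.3, 55.2, 48.7 and 52.0 CPM in the controls and 149, 86.3, 107 and 79.4 CPM in the betamethasone line (log2 fold change 1.06 ± 0.17). NOV, another CCN protein, measured 334, 438, 394 and 384 CPM against 801, 585, 703 and 524 CPM (0.75 ± 0.13). In these 2 genes betamethasone 4, not betamethasone 2, was nearest to the controls. COL9A2, a chain of the fibril-associated collagen IX, measured 23.3, 22.1, 18.3 and 20.8 CPM in the controls and 43.9, 29.2, 42.9 and 38.2 CPM in the betamethasone line (0.87 ± 0.13). COL18A1, the basement membrane collagen from which endostatin is cut, measured 44.7, 39.1, 38.0 and 42.7 CPM against 54.5, 52.9, 59.1 and 55.5 CPM (0.43 ± 0.07). Both collagens were thus higher in every betamethasone animal, by a smaller margin in COL18A1.

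Genes of receptors and signalling proteins that rose included DRD1, FGFRL1, RAPGEF3, GPRC5B and S100A1. DRD1, the D1 dopamine receptor, measured 21.9, 21.8, 17.7 and 18.3 CPM in the controls and 41.9, 27.2, 49.5 and 36.6 CPM in the betamethasone line (log2 fold change 0.96 ± 0.16). FGFRL1, a fibroblast growth factor receptor that lacks the kinase domain, measured 29.0, 23.6, 21.1 and 26.7 CPM against 44.4, 37.6, 44.6 and 47.1 CPM (0.79 ± 0.11). Betamethasone 2 was again the lowest of its line in both. RAPGEF3, the cAMP-activated exchange factor EPAC1, measured 22.4, 20.7, 23.7 and 20.9 CPM in the controls and 32.02, 31.3, 28.5 and 31.2 CPM in the betamethasone line (0.49 ± 0.08). GPRC5B, an orphan G protein-coupled receptor, measured 233, 215, 224 and 218 CPM against 280.0, 271, 284 and 281 CPM (0.33 ± 0.05), and S100A1, a calcium-binding protein, 30.8, 20.04, 24.3 and 18.3 CPM against 52.9, 34.9, 47.1 and 51.0 CPM (0.99 ± 0.17). For RAPGEF3 and GPRC5B the 4 animals of each line lay close together, betamethasone 2 included.

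The remaining risen genes have mixed functions. RAB7B, a small GTPase of endosomal transport, measured 16.6, 12.3, 11.8 and 11.6 CPM in the controls and 30.3, 19.8, 36.1 and 25.8 CPM in the betamethasone line, and PNPLA7, a lysophospholipase, 6.05, 7.86, 7.12 and 6.02 CPM against 13.01, 11.6, 17.9 and 11.4 CPM. MOB3B, of the MOB family of kinase regulators, measured 23.6, 23.3, 25.5 and 23.3 CPM against 33.8, 33.7, 35.2 and 30.02 CPM. The homeobox gene HOXD1 was low throughout, at 4.70, 3.23, 3.21 and 3.23 CPM in the controls and 9.54, 6.84, 14.4 and 7.69 CPM in the betamethasone line. SPATS1 was lower still, at 1.21, 1.03, 0.939 and 1.08 CPM against 2.06, 2.30, 2.71 and 2.79 CPM, and rested on as few as 12 reads in an animal. CCDC152 measured 379, 332, 320.3 and 336 CPM in the controls and 487, 433, 480.0 and 533 CPM in the betamethasone line. In other mammals its locus overlaps that of selenoprotein P on the opposite strand. The library kit does not mark strand, so reads of the 2 genes cannot be told apart. Log2 fold changes of these 6 genes ran from 0.47 ± 0.07 for MOB3B to 1.42 ± 0.24 for HOXD1.

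The genes that fell included the transcription factors BHLHE22 and MEF2C. BHLHE22, a basic helix-loop-helix factor that shapes the identity of cortical projection neurons, measured 9.83, 18.9, 17.4 and 18.5 CPM in the controls and 3.83, 7.53, 5.07 and 3.77 CPM in the betamethasone line, with a log2 fold change of -1.68 ± 0.25. Control 1 was the lowest control by a wide margin and betamethasone 2 the highest of its line. MEF2C, a MADS-box factor of excitatory neurons, measured 476, 455, 566 and 474 CPM in the controls and 329, 395, 327 and 304 CPM in the betamethasone line (-0.54 ± 0.09).

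RIMS3, SCG2, TAC3 and HTR7, which act in synaptic release, peptide or serotonin signalling, also fell. RIMS3, a protein of the presynaptic active zone, measured 161, 156, 163 and 162 CPM in the controls and 112, 121, 104 and 120 CPM in the betamethasone line (log2 fold change -0.49 ± 0.06). SCG2, a secretogranin of dense-core vesicles, measured 492, 509, 494 and 485 CPM against 379, 367, 368 and 388 CPM (-0.40 ± 0.05). The controls differed little from each other in these 2 genes, control 1 included. TAC3, which encodes neurokinin B and is made by a set of interneurons, measured 38.5, 34.9, 41.1 and 42.0 CPM in the controls and 22.2, 25.4, 16.2 and 20.7 CPM in the betamethasone line (-0.89 ± 0.12). HTR7, a serotonin receptor coupled to cAMP, measured 7.97, 6.68, 8.61 and 6.45 CPM against 3.83, 4.15, 4.51 and 3.39 CPM (-0.90 ± 0.15).

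The other genes that fell have varied roles. FRZB, a secreted antagonist of Wnt signalling, measured 15.2, 14.8, 17.7 and 16.2 CPM in the controls and 8.24, 10.8, 7.71 and 8.45 CPM in the betamethasone line. MYL4, a myosin light chain, measured 13.6, 24.8, 22.5 and 20.5 CPM against 4.12, 6.91, 2.22 and 9.05 CPM, and VWA5B1 measured 4.70, 9.84, 9.24 and 7.60 CPM against 1.06, 3.07, 1.53 and 2.56 CPM. In MYL4 and VWA5B1 control 1 was the lowest control. PIK3AP1, an adaptor of phosphoinositide 3-kinase, measured 27.0, 38.3, 32.6 and 28.5 CPM in the controls and 20.5, 15.6, 14.2 and 19.8 CPM in the betamethasone line. MAN1A1, a mannosidase of the Golgi, measured 72.3, 69.9, 77.8 and 81.1 CPM against 53.6, 60.6, 49.0 and 45.7 CPM, and VSTM2A measured 276, 287, 363 and 295 CPM against 169, 234, 161 and 180 CPM. ARL15, a small GTPase, measured 34.3, 40.7, 42.0 and 39.3 CPM against 26.6, 31.3, 26.3 and 26.6 CPM, and PALD1 63.0, 56.4, 55.7 and 62.8 CPM against 46.4, 44.5, 45.3 and 42.0 CPM. Their log2 fold changes ran from -0.42 ± 0.07 for PALD1 to -1.96 ± 0.32 for VWA5B1.

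The 31 calls depended on which animals were in the fit. Without control 1, 245 genes passed the threshold, without betamethasone 2, 487 genes, and without both 780 of 11146 genes (7%), 456 higher (4.09%) and 324 lower (2.91%). All 31 genes were called in each of these 3 fits. Without control 2, 3 or 4, or without betamethasone 1 or 3, edgeR called 0 genes (1189 to 1563 had an unadjusted p under 0.05), and without betamethasone 4 it called 7. Of the 31 genes, 6 were called in that last fit, namely ANLN, CTGF, MOB3B, NOV, RIMS3 and SCG2. With all 8 animals but the spread estimated in 1 fit of the F1, F2 and F3 female tables, 1 gene was called, SPATS1 (FDR 0.00872), and the FDR of ANLN was 0.0646. The likelihood ratio test, the kind the study used, called 534 genes when run here on the same filtered counts, and DESeq2 473. The count of 534 comes from this refit and is not the study's own. The 31 genes kept their sign in all 8 fits with an animal left out and without both animals. With all 8 animals the lines did not overlap in any of the 31, so leaving animals out could hardly reverse a sign. The kept signs are therefore not a test of direction. In the full fit control 1 was the control nearest to the betamethasone line for 18 of the 31 genes, and betamethasone 2 was the animal of its line nearest to the controls for 20. Such counts, here and for the lists below, were not made over all genes.

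Of the 780 genes called without both animals, 777 were also tested with all 8, and all 777 had the same direction there. With all 8 animals, 696 of them had an unadjusted p under 0.05 and 31 an FDR under 0.05. Their median absolute log2 fold change was 0.65 without the 2 animals and 0.47 with them. HAPLN2 moved from 1.70 to 2.11 ± 0.21, BHLHE22 from -1.68 to -2.11 ± 0.15 and VWA5B1 from -1.96 to -2.40 ± 0.27. RAPGEF3, SCG2, PALD1, NOV, MOB3B and HTR7 were among those that changed by less than 0.05 on the log2 scale.

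**Figure D2:**
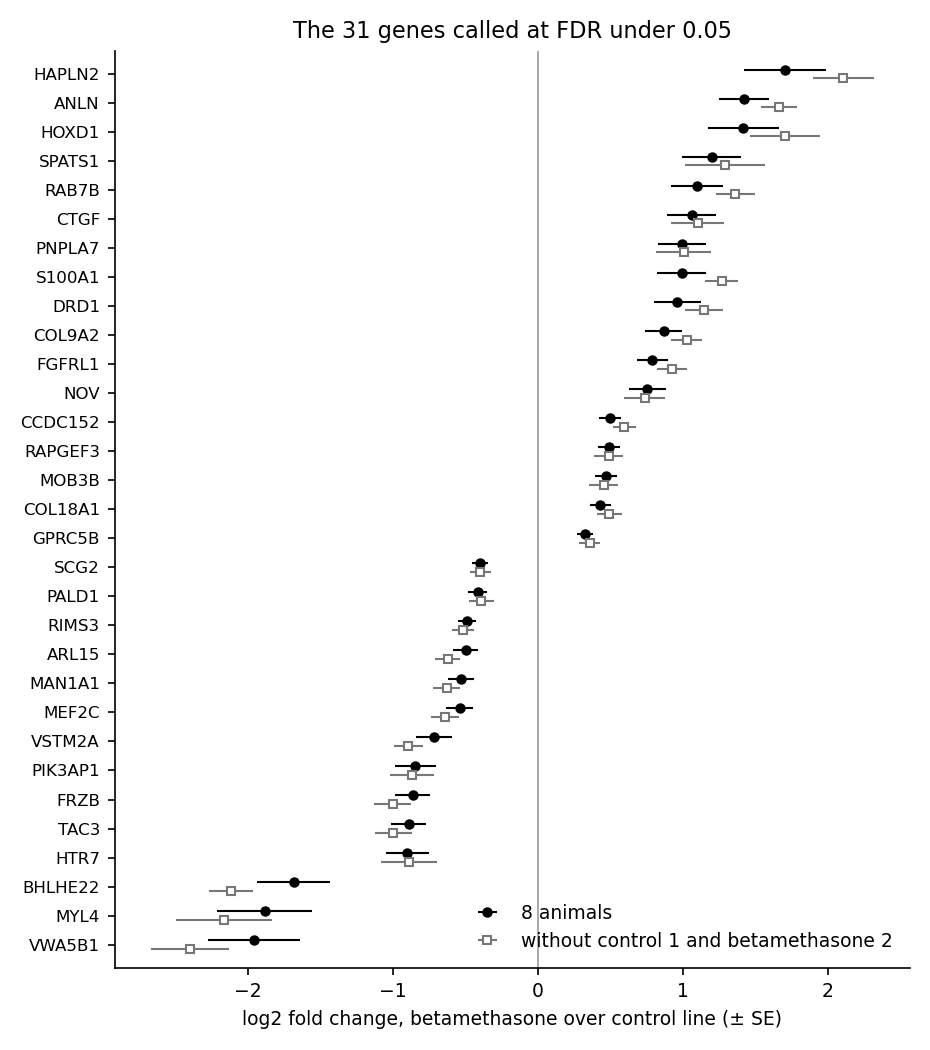
Log2 fold change (x axis, betamethasone over control line, with the standard error as bars) of the 31 genes with an FDR under 0.05, with all 8 animals (filled circles) and without control 1 and betamethasone 2 (open squares). All 31 lie on the same side of 0 in both fits, which follows from the lack of overlap between the lines in these genes. With all 8 animals they run from HAPLN2 at 1.70 to VWA5B1 at -1.96.

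**Figure D3:**
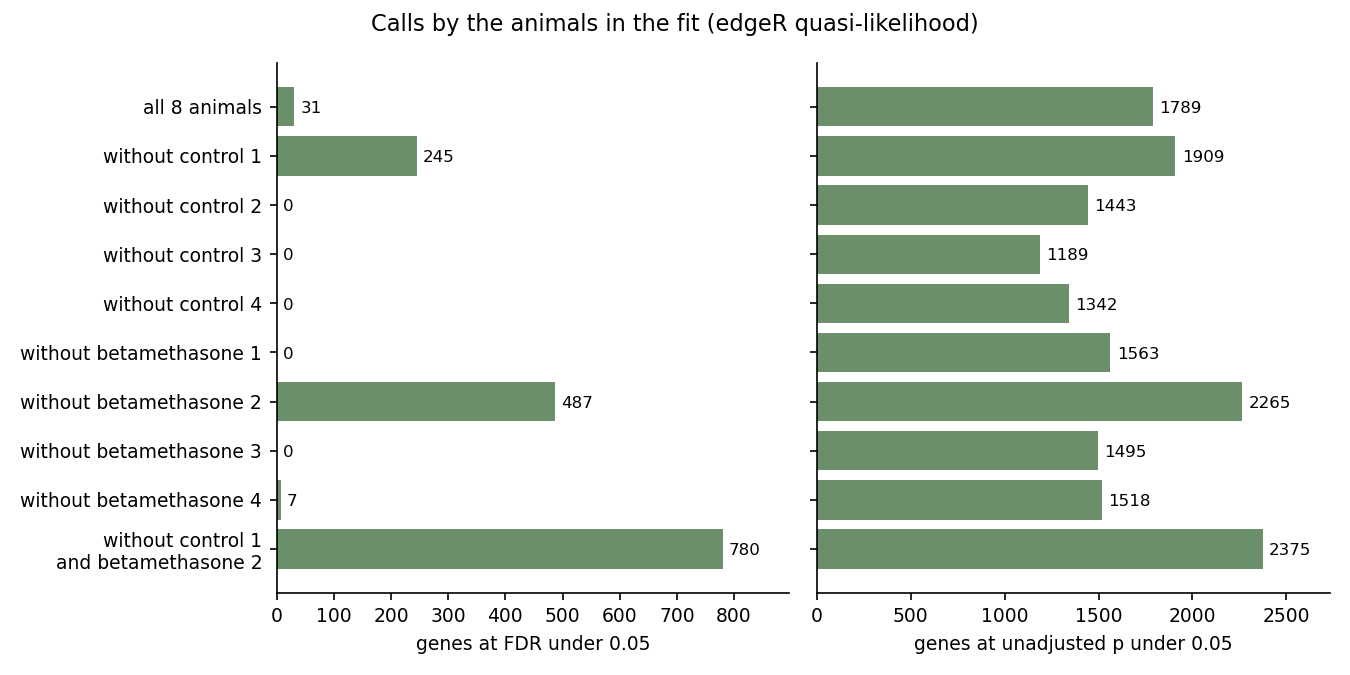
Number of genes (x axes) with an FDR under 0.05 (left) and an unadjusted p under 0.05 (right) in edgeR's quasi-likelihood test, by which animals were left out (y axis). The left count goes from 31 to 245, 487 and 780 when control 1, betamethasone 2 or both are left out and to 0 or 7 when any other animal is, while the right count stays between 1189 and 2375.

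Gene lists for cell types and functions showed where the weaker differences lay. For each list the number of tested members with an unadjusted p under 0.05 is given in each direction, to be read against 8.72% higher and 7.35% lower over all genes, together with the median log2 fold change of the members, which over all genes was 0.01. No list was tested as a set, and a gene that passes only the unadjusted criterion is given with its values and not as changed.

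Genes of mature oligodendrocytes and myelin stood out most. Of 31 tested members, 28 (90.3%) had an unadjusted p under 0.05 in the upward direction and 0 in the downward direction, and the median log2 fold change was 0.80. Of these, 2 passed the FDR threshold, ANLN and HAPLN2 above. ERMN, a cytoskeletal protein of myelin sheaths, measured 51.1, 42.6, 39.1 and 27.8 CPM in the controls and 115.8, 56.8, 164 and 94.9 CPM in the betamethasone line (log2 fold change 1.43 ± 0.28, FDR 0.0516). MYRF, the transcription factor that switches on myelin genes, measured 67.1, 48.6, 46.7 and 40.7 CPM against 115.9, 67.9, 147 and 102 CPM (1.09 ± 0.21, FDR 0.0516). In both, betamethasone 2 exceeded control 1 by little. MBP, MOBP, GJB1 and GSN, also on the list, were not among the listed genes.

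The mean log2 CPM of the myelin list was 6.22 in control 1 and 5.84, 5.76 and 5.77 in controls 2, 3 and 4. In the betamethasone line it was 6.77, 6.23, 6.997 and 6.60. On this scale control 1 and betamethasone 2 were almost level. Summed over the members, control 1 (6960 CPM) lay above betamethasone 2 (6810 CPM), so the lines overlapped. Control 1 was the control nearest to the betamethasone line for 28 of the 31 members, and betamethasone 2 was on the control side of control 1 for 17. Without both animals, 23 members passed the FDR threshold upward, against 4.09% of all genes, and the median was 1.07. Across the fits with an animal left out, the number of members with an unadjusted p under 0.05 upward ranged from 25 to 29 and the median from 0.63 to 0.94.

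Of 14 genes of oligodendrocyte precursors, 4 had an unadjusted p under 0.05 upward and 0 downward (median 0.14). They were the lineage factors NKX2-2 (log2 fold change 0.53 ± 0.10, FDR 0.0516), OLIG1 (0.45 ± 0.11, FDR 0.0808) and OLIG2 (0.47 ± 0.13, FDR 0.109), and ENPP6, which is made by newly forming oligodendrocytes (0.69 ± 0.25, FDR 0.210). The other 10 did not meet the criterion. Among them were PDGFRA (-0.21 ± 0.15, FDR 0.533) and CSPG4 (0.10 ± 0.10, FDR 0.694), both named after their values were seen. Of 19 astrocyte genes, 5 met the criterion upward and 0 downward (median 0.09), led by the receptor FGFR3 (0.36 ± 0.10, FDR 0.128) and glutamine synthetase GLUL (0.26 ± 0.08, FDR 0.135). Of 13 microglial genes, 0 met the criterion in either direction (median 0.07), and of 18 endothelial and pericyte genes 2 met it upward and 1 downward (median 0.07), the last being the pericyte potassium channel KCNJ8 (-0.39 ± 0.14, FDR 0.214). The 2 measured genes of red blood cells, SLC4A1 and ALAS2, did not meet it (median -0.01), and haemoglobin genes were not listed.

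The list of general cortical excitatory neuron genes, with SLC17A7 and NEUROD2, had 0 of 9 members upward and 1 downward, CAMK2A at -0.20 ± 0.09, and a median of 0.05. Of 12 upper-layer genes, 7 (58.3%) had an unadjusted p under 0.05 downward and 1 upward, with a median of -0.58. MEF2C passed the FDR threshold. RASGRF2, a Ras exchange factor of layer II and III neurons, measured 187, 197, 271 and 226 CPM in the controls and 95.2, 169, 89.2 and 109 CPM in the betamethasone line (-0.93 ± 0.19, FDR 0.0522), and RORB, the nuclear receptor of layer IV, 64.9, 70.8, 96.5 and 67.8 CPM against 40.0, 59.2, 38.5 and 44.7 CPM (-0.72 ± 0.15, FDR 0.0568). CALB1, the calcium buffer calbindin, measured 27.8, 50.7, 49.6 and 46.8 CPM against 16.0, 30.7, 17.9 and 19.99 CPM (-1.05 ± 0.22, FDR 0.0556), and betamethasone 2 lay above control 1. The one upward member, ENPP2, is also on the myelin list and was singled out after its values were seen (0.26 ± 0.07).

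Of 16 deep-layer genes, 8 (50%) had an unadjusted p under 0.05 upward and 0 downward, with a median of 0.51. CTGF passed the FDR threshold. NR4A2, a nuclear receptor found in the deepest cortical neurons, measured 42.4, 51.6, 43.1 and 47.8 CPM in the controls and 80.7, 64.9, 91.6 and 59.6 CPM in the betamethasone line (0.68 ± 0.13, FDR 0.0506). The corepressor TLE4 of corticothalamic neurons had a log2 fold change of 0.58 ± 0.14 (FDR 0.0808) and the sulfatase SULF1 one of 0.69 ± 0.19 (FDR 0.113). In TLE4 betamethasone 2, at 114 CPM, lay within the controls, which ranged from 91.0 to 123 CPM.

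The layer lists ordered the animals much as the myelin list did. Mean log2 CPM of the upper-layer list was 6.22, 6.24, 6.60 and 6.42 in the controls and 5.72, 6.25, 5.66 and 5.69 in the betamethasone line, with betamethasone 2 among the controls and far from its own line. For the deep-layer list the values were 5.62, 5.59, 5.39 and 5.29 against 5.95, 5.45, 6.06 and 5.94, again with betamethasone 2 inside the control range. Without control 1 and betamethasone 2, 9 upper-layer genes had an unadjusted p under 0.05 downward (8 with an FDR under 0.05, median -0.79) and 10 deep-layer genes upward (10 with an FDR under 0.05, median 0.70). Over all genes the unadjusted criterion was then met by 11% upward and 10.3% downward, and the FDR threshold by 4.09% and 2.91%. The myelin, upper-layer and deep-layer lists therefore moved together across animals, and the part of any of them in the differences of the others was not tested.

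**Figure D4:**
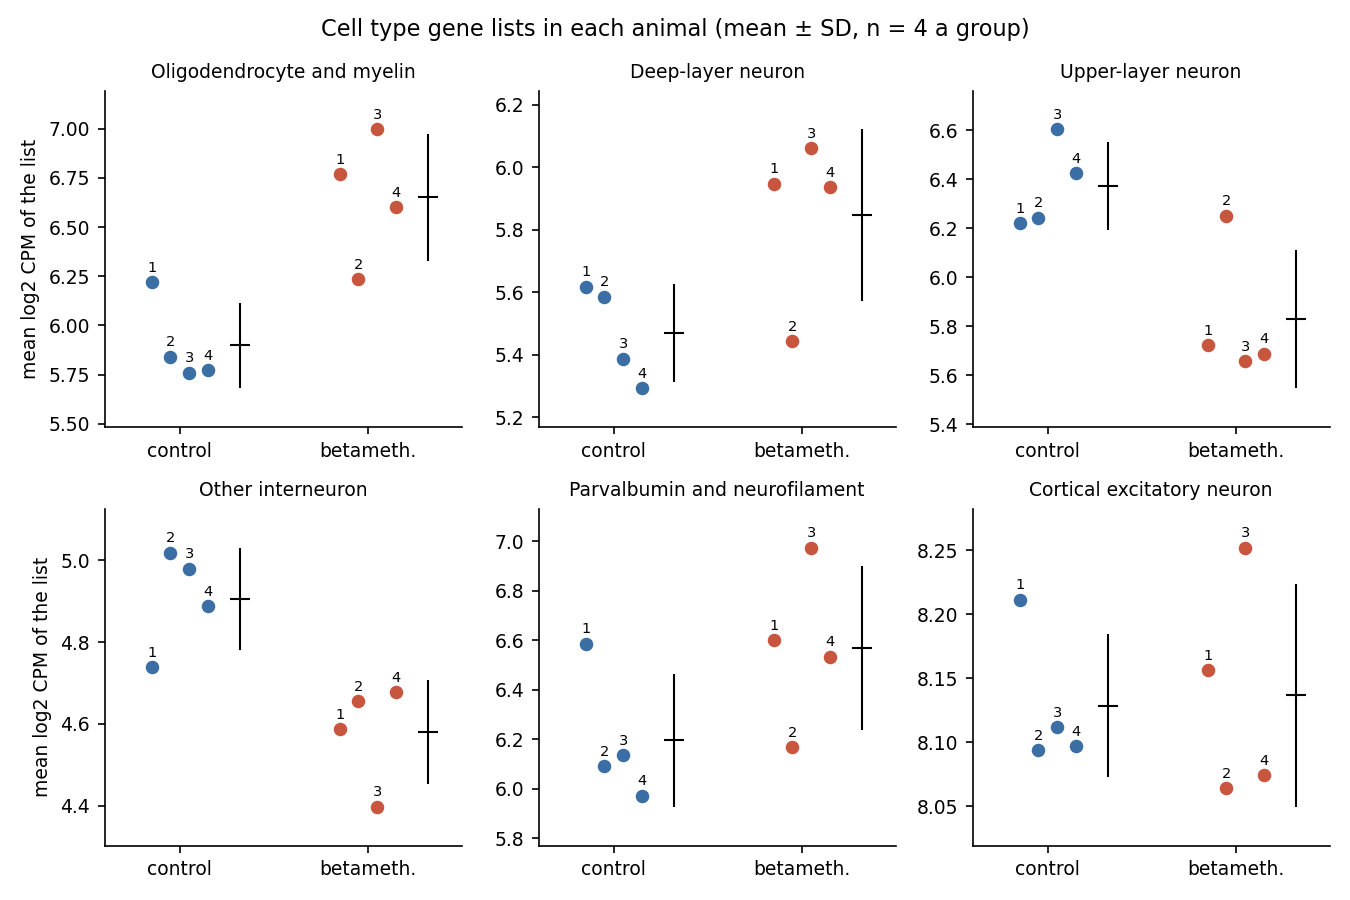
Mean log2 CPM (y axes, scaled to each panel) of 6 cell type gene lists in each F2 animal, numbered as labelled, with the mean and SD of 4 animals a line. In the myelin panel control 1 (6.22) and betamethasone 2 (6.23) are level, and in the upper-layer panel betamethasone 2 (6.25) lies among the controls.

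Interneuron genes were described in separate lists, and the difference between the lists was not tested. In the list of other interneuron genes, 7 of 16 members (43.8%) had an unadjusted p under 0.05 downward and 1 upward. The median was -0.22. This list leaves out PVALB but not every gene that parvalbumin cells express, such as GAD2. TAC3 passed the FDR threshold. VIP, the vasoactive intestinal peptide of disinhibitory interneurons, measured 28.3, 24.4, 27.7 and 31.8 CPM in the controls and 20.5, 18.0, 10.3 and 15.5 CPM in the betamethasone line (-0.80 ± 0.17, FDR 0.0578). CALB2, calretinin, measured 38.2, 147, 112 and 125 CPM against 31.3, 51.9, 11.4 and 34.5 CPM (-1.71 ± 0.43, FDR 0.0886), with control 1 far below the other controls and below betamethasone 2. GAD2, one of the enzymes that make GABA, differed little in size, at 165, 184, 184 and 176 CPM against 161, 157, 147 and 146 CPM (-0.21 ± 0.06, FDR 0.121). SST, somatostatin, had a log2 fold change of -0.09 ± 0.23, and the one upward member, NPY, of 0.50 ± 0.16 (FDR 0.166), both named after their values were seen. The mean of the list lay between 4.74 and 5.02 in the controls, control 1 being lowest, and between 4.40 and 4.68 in the betamethasone line. The lines thus did not overlap in this mean. The same was so for the oligodendrocyte precursor, ionotropic glutamate receptor and perineuronal net lists and, narrowly, the myelin list. In the means of the other lists the lines overlapped.

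In the list of parvalbumin interneuron and neurofilament genes, 4 of 14 had an unadjusted p under 0.05 upward and 1 downward, with a median of 0.45. The peptide gene TAC1 (0.85 ± 0.28, FDR 0.180), the potassium channel subunit KCNS3 (0.32 ± 0.11, FDR 0.183), the sodium channel subunit SCN4B (1.02 ± 0.35, FDR 0.183) and complexin 1, CPLX1 (0.60 ± 0.22, FDR 0.225), were the 4. GAD1, the other GABA-synthesizing enzyme, was the downward member (-0.15 ± 0.07, FDR 0.309). PVALB itself, parvalbumin, did not meet the criterion (0.58 ± 0.32, FDR 0.416), and both were named after their values were seen. The mean of this list was 6.59 in control 1, as high as in betamethasone 1 (6.60), and 6.17 in betamethasone 2, near controls 2, 3 and 4 at 6.09, 6.14 and 5.97. Without control 1 and betamethasone 2, 9 of the 14 passed the FDR threshold upward.

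Markers of neighbouring structures were mixed or lower. The 17 tested striatal genes had 3 members in each direction and a median of -0.11. Upward were DRD1, described above, the retinoid receptor RXRG (log2 fold change 1.22 ± 0.23, FDR 0.0506) and TAC1. Downward were ARPP21 (-0.50 ± 0.09, FDR 0.0506), Pdyn, which encodes prodynorphin (-1.67 ± 0.51, FDR 0.144), and PDE1B. The mean log2 CPM of the striatal list was 5.34 to 5.59 in the controls and 5.19 to 5.53 in the betamethasone line, which overlap, and its summed level, which the most abundant members weigh on, was 1346 to 1407 CPM against 1145 to 1314 CPM. Of 8 genes of the paraventricular nucleus, 1 was upward and 1 downward (median 0.00), and the downward gene CRH was at most 2.28 CPM. Among genes of fibroblasts and meninges, 4 of 11 were downward and 0 upward (median -0.26), and 2 downward without control 4. These were low, with OGN (-1.58 ± 0.42, FDR 0.103), COL1A1 (-0.75 ± 0.24, FDR 0.162), COL1A2 and DCN. Among 7 genes of choroid plexus and ependyma, 3 were downward and 0 upward (median -0.46), where FOXJ1, the master factor of motile cilia, was at or below 2.94 CPM in every animal and the choroid plexus gene TTR was not listed. Whether these markers had a part in other differences was not tested.

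For the subunits of the GABA-A receptor, the main inhibitory receptor of the brain, 4 of 11 had an unadjusted p under 0.05 downward and 0 upward (median -0.13). GABRA3 measured 447, 465, 508 and 438 CPM in the controls and 379.9, 380.2, 403 and 321 CPM in the betamethasone line (-0.32 ± 0.08, FDR 0.0811). The lines did not overlap in this gene. GABRA2 (-0.41 ± 0.11, FDR 0.0968) and GABRA4 (-0.22 ± 0.09, FDR 0.273) overlapped between the lines. Among 17 ionotropic glutamate receptor subunits, 6 were downward and 2 upward (median -0.08). The kainate receptor subunit GRIK3 had a log2 fold change of 0.61 ± 0.13 (FDR 0.0594), and the AMPA receptor subunits GRIA4 and GRIA1 had -0.55 ± 0.12 (FDR 0.0648) and -0.34 ± 0.09 (FDR 0.110).

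Of 25 receptors for monoamines and acetylcholine, 6 were upward and 3 downward (median 0.08), among them DRD1 and HTR7 with an FDR under 0.05. HTR1A, the serotonin 1A receptor, measured 15.3, 18.9, 12.4 and 12.98 CPM in the controls and 40.6, 15.8, 32.4 and 27.2 CPM in the betamethasone line (0.96 ± 0.24, FDR 0.0881), and betamethasone 2 lay within the controls. CHRNA7, the alpha 7 nicotinic subunit, had a log2 fold change of -0.23 ± 0.07 (FDR 0.152). Potassium channels (9 of 51 upward and 7 downward, median 0.02) and sodium and calcium channels (3 of 26 upward and 4 downward, median -0.07) had members on both sides, such as KCNIP3 at 0.22 ± 0.06 and KCND3 at -0.32 ± 0.09, and SCN4B at 1.02 ± 0.35 and CACNA2D3 at -0.30 ± 0.09.

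Of 35 genes of vesicle release, 8 had an unadjusted p under 0.05 upward and 7 downward (median 0.00). RIMS3 passed the FDR threshold downward. SYT4, a synaptotagmin, measured 397, 387, 454 and 395 CPM in the controls and 309, 338, 317 and 264 CPM in the betamethasone line (-0.41 ± 0.08, FDR 0.0538). CPLX3, a complexin known in cortex from the deepest layer, measured 105, 165, 109.7 and 123 CPM against 395, 176, 248 and 231 CPM (1.07 ± 0.22, FDR 0.0556), and the glutamate transporter SLC17A6 had a log2 fold change of -0.47 ± 0.10 (FDR 0.0556). Axon guidance genes had 7 of 46 upward and 10 downward (median -0.03), with the semaphorin receptor PLXNB3 at 0.86 ± 0.15 (FDR 0.0506), the secreted repellents SLIT2 and SLIT3 at -0.73 ± 0.15 (FDR 0.0517) and -0.42 ± 0.09 (FDR 0.0585), and SEMA5B at 0.69 ± 0.16 (FDR 0.0698).

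Extracellular matrix genes had 4 of 33 upward and 6 downward (median -0.01). COL18A1 passed the FDR threshold upward, while COL6A3 measured 2.35, 3.45, 2.90 and 2.94 CPM in the controls and 1.18, 1.46, 1.25 and 1.58 CPM in the betamethasone line (-1.09 ± 0.20, FDR 0.0506). Of 10 perineuronal net genes, HAPLN2 alone was upward and 0 were downward (median 0.04).

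The glucocorticoid and mineralocorticoid receptors did not differ detectably between the lines. NR3C1 measured 75.5, 79.5, 98.9 and 76.1 CPM in the controls and 74.996, 89.1, 76.9 and 69.8 CPM in the betamethasone line (log2 fold change -0.09 ± 0.10, FDR 0.730). NR3C2 measured 35.3, 32.2, 43.7 and 35.4 CPM against 30.3, 42.4, 33.4 and 30.2 CPM (-0.11 ± 0.12, FDR 0.730). FKBP5, a chaperone of the receptor and a classical target, measured 12.7, 11.7, 12.1 and 12.04 CPM against 12.5, 11.2, 12.8 and 10.3 CPM (-0.05 ± 0.10, FDR 0.858). Of 20 receptors, metabolic enzymes and targets in all, 1 was upward (GLUL) and 2 downward (median -0.05), the zinc finger gene ZBTB16 at -0.42 ± 0.15 (FDR 0.207) and the corepressor NCOR1 at -0.18 ± 0.07 (FDR 0.240). Among 17 immediate early genes, ARC, which answers to neuronal activity, alone was upward (0.51 ± 0.14, FDR 0.116) and 0 were downward (median 0.13), and among 17 clock genes RORB and TEF were downward and 0 upward (median -0.08).

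Of the metabolic and housekeeping lists, cholesterol synthesis had the most members on one side. Of its 21 genes, 8 (38.1%) had an unadjusted p under 0.05 upward and 0 downward, with a median of 0.15 and no member under an FDR of 0.05. DHCR7, the last enzyme of the pathway, measured 43.9, 45.01, 37.6 and 44.4 CPM in the controls and 56.5, 46.4, 55.5 and 54.6 CPM in the betamethasone line (0.32 ± 0.08, FDR 0.101). Without control 3 the count of 8 fell to 3. Cytosolic ribosomal proteins had 2 of 46 upward and 0 downward (median 0.08), oxidative phosphorylation 1 of 54 upward and 0 downward (median 0.09), and heat shock proteins and chaperones 2 of 25 upward and 1 downward (median -0.06).

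**Figure D5:**
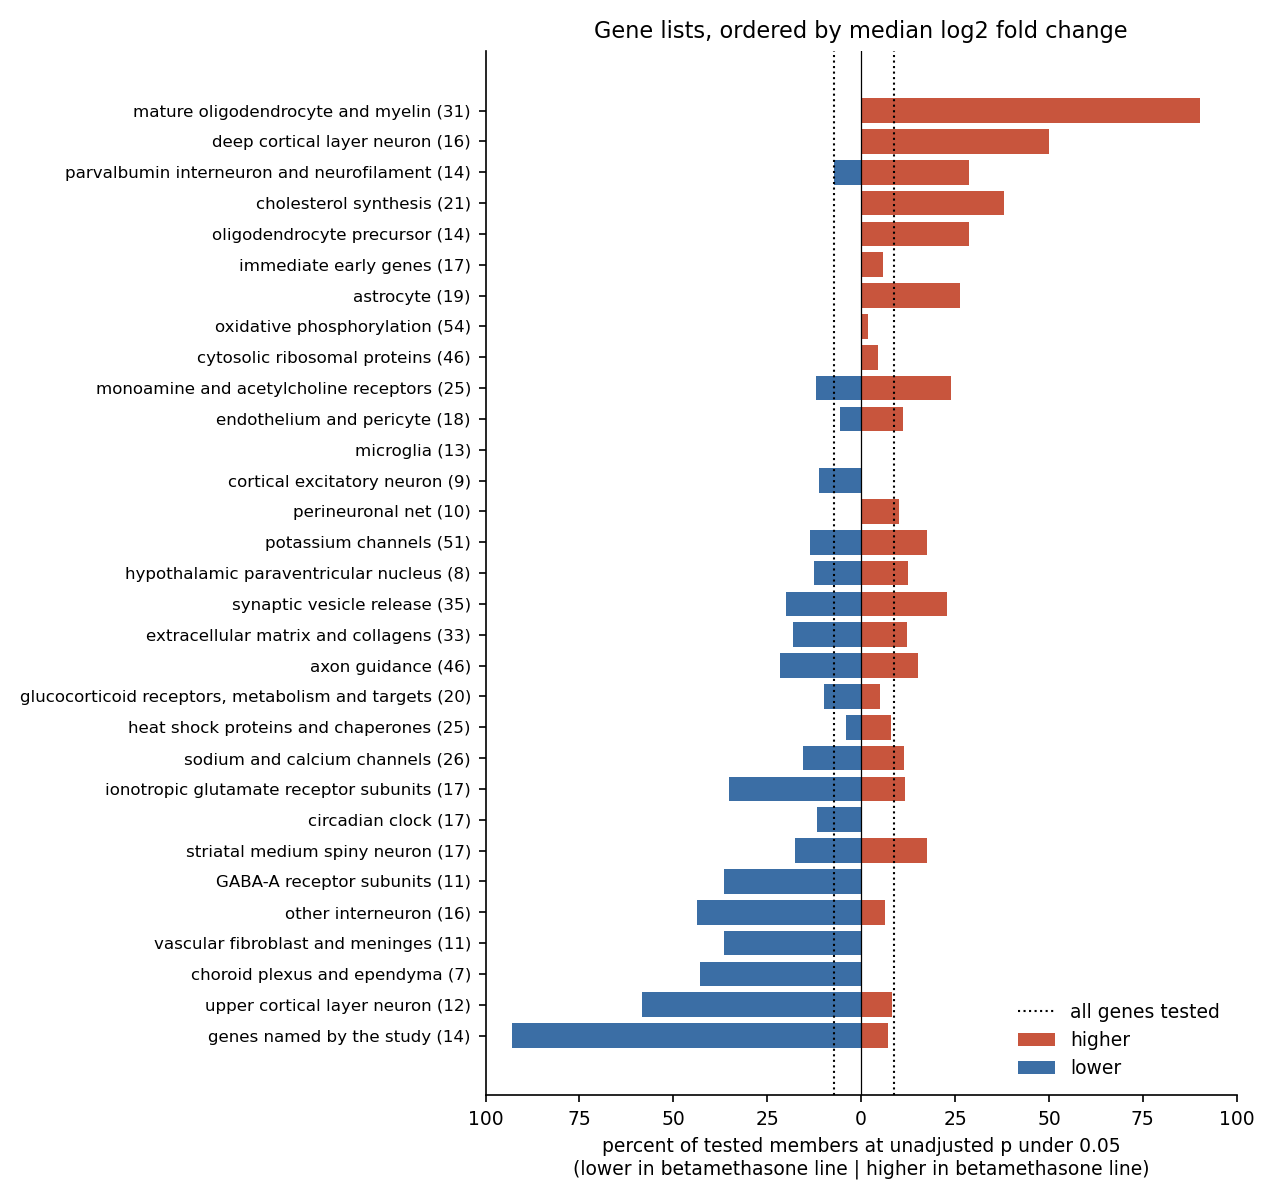
Percent (x axis) of the tested members of each gene list (number in brackets, y axis) with an unadjusted p under 0.05. Bars show members with a lower (left) or higher (right) level in the betamethasone line. Lists are ordered by median log2 fold change, and dotted lines mark the shares over all genes, 7.35% and 8.72%. The list of red blood cell genes, with 2 tested members, is not shown. The myelin list reaches 90.3% on the right and the upper-layer list 58.3% on the left, and the list at the bottom holds the genes named by the study, 13 of 14 of them from these animals.

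The last list holds 14 genes that the study names, 13 of them from these F2 animals or from every group of the series and GAD2 from the F1 and F3 females. For the 13, the direction here is not independent evidence. All 14 had an unadjusted p under 0.05, DRD1 upward and 13 downward, with a median of -0.61, and DRD1 had an FDR under 0.05. KRT80, a keratin, measured 7.76, 16.2, 11.6 and 10.5 CPM in the controls and 4.24, 4.61, 2.78 and 7.32 CPM in the betamethasone line (-1.29 ± 0.28, FDR 0.0578). VSTM2L measured 97.1, 86.5, 107 and 96.4 CPM against 60.3, 78.8, 52.4 and 71.6 CPM (-0.56 ± 0.12, FDR 0.0556). The glycine receptor subunit GLRA3 (-1.35 ± 0.50), the orphan receptor GPR52 (-1.02 ± 0.33) and C9orf116 (-0.83 ± 0.24) were low, at most 5.17, 3.44 and 4.23 CPM. SOWAHA had -0.66 ± 0.19 and ATP6AP1L -0.37 ± 0.09. Control 1 was the nearest control to the betamethasone line for 11 of the 14, and betamethasone 2 the nearest of its line to the controls for 11. Without both animals, 11 of the 13 lower genes passed the FDR threshold, against 2.91% of all genes downward.

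The F2 response was set against that of F1 females, born to the treated dams, and of F3 females, 1 generation further on, with separate controls in each generation. An interaction term, the F2 log2 fold change less that of the other generation, had an FDR under 0.05 for 1536 of 11166 genes (13.8%) against F1 and for 2 of 11140 (0.018%) against F3. The first count was 808 without control 3 and 923 without betamethasone 4. The likelihood ratio test gave 93 interactions against F3, and 1278 genes had an unadjusted p under 0.05, so the low count does not show that F2 and F3 responded alike. Of the 31 called genes, 20 had an interaction against F1, 14 more positive and 6 more negative in F2. The 31 were picked for their F2 difference, which is part of the interaction. Their share can thus not be read against the 13.8% of all genes. In F1 females, 10 of the 31 had the same sign as in F2, and in F3 females 25 of the 29 that were tested. With the same sign, an unadjusted p under 0.05 was reached by 2 of the 31 in F1 and 3 of the 29 in F3. The share of all genes with the same sign was not counted, so these counts do not show a shared response. ANLN had -0.41 in F1 and 0.32 in F3, and MEF2C 0.93 in F1 and 0.40 in F3.

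Among the myelin genes, the median log2 fold change was 0.80 in F2, -0.69 in F1 and 0.29 in F3, and 22 of 31 members had an interaction against F1, all higher in F2, against 6.75% of all genes in that direction. Medians for the deep-layer list were 0.51, 0.47 and 0.29 and for the upper-layer list -0.58, -0.14 and -0.20, with 1 of 16 deep-layer genes more positive, 2 more negative and 2 of 12 upper-layer genes more negative in F2 than in F1, against 7% of all genes in that direction. The general excitatory neuron list had a median of 1.83 in F1 and 0.47 in F3 against 0.05 in F2, and the striatal list -1.27 in F1 and -0.76 in F3 against -0.11. Markers that distinguish cortex from striatum thus differed between the lines in F1 by more than in F2, and their part in the interactions was not tested.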

How the data were processed

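The authors made 1 mRNA library per animal and deposited raw read counts, whole numbers listed by gene symbol, in 1 table for each group. Their processing notes name TopHat2 and edgeR. The read counter, genome build and gene filter are not given in the sources used here. Their columns of log fold change, mean log CPM, likelihood ratio, p-value and FDR were not used. The counts were fitted by the quasi-likelihood test of edgeR 4.0.16 (R 4.3.3, limma 3.58.1, DESeq2 1.42.0), after filterByExpr (minimum count 10, total 15), which left 11132 of 11362 genes, and TMM scaling. P-values were adjusted by the Benjamini-Hochberg method over all genes tested. Log2 CPM used a prior count of 2. The methods were tested on simulated data. Interactions were fitted to the F1 and F2, or F2 and F3, female counts together, filtered again, with a mean for each group. Alternatives were the likelihood ratio test used in the study, DESeq2, RLE and upper-quartile scaling, no filter, CPM above 1 in 4 animals, a replicate block, 1 fit of the 3 female tables, an FDR of 0.1, and omission of animals.

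The animals, the 32 gene lists and the tests were chosen with earlier results of these data known. Named genes are all those with an FDR under 0.05, up to 4 per list with the lowest p, or 2 where none had a p under 0.05, the 14 genes named by the study, NR3C1, NR3C2 and FKBP5. Of the 11362 symbols, 10589 matched a gene of RefSeq assembly mCavPor4.1, and 18 had the form of a date and were not named. Paralogs and overlapping genes may share reads. Results of some genes are counted in the lists but not reported by name here.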

Additional observations from a re-analysis of the deposited data

Results flagged for a closer look

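In 160 groups of 4 animals checked, 8 held an animal far from the other 3 by Dixon's criterion. Chance alone meets this criterion in about 1 group of 20 where groups are independent. These groups share the same animals, and many genes were picked for their difference, so the number found cannot be read against that rate. Control 1 stood apart in 5 of the 8, with BHLHE22 at 9.83 CPM (other controls 17.4 to 18.9), CALB1 at 27.8 CPM (46.8 to 50.7), HOXD1 at 4.70 CPM (3.21 to 3.23), RAB7B at 16.6 CPM (11.6 to 12.3) and a mean log2 CPM of the excitatory neuron list of 8.21 (8.09 to 8.11). Betamethasone 2 stood apart in ARL15, at 31.3 CPM (others 26.3 to 26.6), and in the mean log2 CPM of the upper-layer list, at 6.25 (5.66 to 5.72). Control 3 stood apart in MOB3B, at 25.5 CPM (23.3 to 23.6).

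The response differed between F2 and F1 females, by an interaction with an FDR under 0.05, for 23 of the 47 genes made up of the 31 called genes, the study's genes, NR3C1, NR3C2 and FKBP5. Over all genes this share was 13.8%, but the 31 were picked for their F2 difference, which is part of the interaction. The F2 log2 fold change exceeded that of F1 by 2.39 for HOXD1, 2.17 for HAPLN2, 1.97 for RAB7B, 1.95 for PNPLA7, 1.82 for ANLN, 1.71 for DRD1, 1.58 for COL9A2, 1.45 for S100A1, 1.44 for FGFRL1, 1.18 for MOB3B, 1.06 for RAPGEF3, 0.96 for COL18A1, 0.87 for GPRC5B, 0.86 for SPATS1 and 0.40 for GAD2. The difference was -2.47 for BHLHE22, -1.48 for MEF2C, -1.38 for ATP6AP1L, -1.38 for HTR7, -1.17 for FRZB, -1.01 for GABRA3, -0.99 for VSTM2A and -0.62 for PALD1. Against F3, 0 of the 47 had an FDR under 0.05.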

How the results depend on the processing

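The count of calls moved with the test. In the quasi-likelihood fit of 4 animals a line, the adjusted p-values of the 31 genes lay close to the threshold. The highest adjusted p of the same genes was 0.00025 by the likelihood ratio test and 0.0071 by DESeq2. Called genes numbered 534 (315 higher, 219 lower) with the likelihood ratio test, 473 (270, 203) with DESeq2, 70 (45, 25) with upper-quartile scaling, 76 (45, 31) without a filter, 329 (197, 132) at an FDR under 0.1, 1 (1, 0) in 1 fit of the 3 female tables and 780 (456, 324) without control 1 and betamethasone 2, against 31 (17, 14). With 1 animal left out, they ranged from 0 to 487 (0 to 290 higher, 0 to 197 lower). RLE scaling gave 35 and a CPM filter 36. All 31 genes kept their sign in each of these fits, 29 of them being tested in the fit of the 3 tables. As the lines did not overlap in these genes, a reversed sign was hardly possible. The replicate block gave 53 calls (40 higher, 13 lower, 75.5% higher against 54.8%) and kept 19 of the 31, but same-numbered animals correlated at 0.123, -0.291, -0.132 and -0.066, so the numbers do not pair them.

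Interactions against F1 ranged from 808 to 1539 with 1 animal left out, and were 1147 without both animals, 1723 with the likelihood ratio test and 1067 with the block. Those against F3 ranged from 0 to 4 and were 8, 93 and 9. The striatal list's median turned positive without both animals (0.065) and ranged from -0.143 to 0.043, positive without control 2, with 1 animal left out. In those fits the median of monoamine and acetylcholine receptors ranged from -0.020 (without betamethasone 3) to 0.114, NR3C1 from -0.160 to 0.010 (without control 3) and FKBP5 from -0.097 to 0.0055 (without betamethasone 4). The causes were not tested. Genes under 3 CPM, such as SPATS1 and FOXJ1, rest on few reads.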
